A study of Sus scrofa with 20 samples.

Results

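Chemokines are small secreted proteins that direct the migration of leukocytes. They bind G protein-coupled receptors on the cell surface, and the receptors a cell carries decide which tissues it enters: CCR7 and CXCR5 guide lymphocytes into and within lymph nodes, CCR9 guides T cells to the gut, and CCR1, CCR2 and CXCR2 bring monocytes and granulocytes to inflamed tissue. In blood the ligands are made in part by the leukocytes themselves, for example CCL3, CCL4 and CCL5 by cytotoxic lymphocytes.

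The chemokines and chemokine receptors on a pig expression array were described in peripheral blood mononuclear cells (PBMC) of weaned German Landrace piglets. The genes were chosen by their symbol in the array's annotation (CCL, CXCL, CCR, CXCR, XCL, XCR, CX3C or ACKR followed by a number), with 1 probe set per gene, the one of the highest mean. This gave 41 genes of 13755 named genes, 13 receptors and 28 ligands, read by 58 probe sets. Under these symbols there was no atypical receptor (ACKR) and none of CCR3, CCR6, CCR8 and CXCR1. Of the 41 genes, 24 exceeded the array median in 16 or more of the 20 animals and were tested (11 receptors, 13 ligands), among 9367 tested genes.

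All piglets ate wheat, barley and soybean based feed from weaning and differed in its calcium and phosphorus: 6 animals on the low diet (L; 3 females, 3 males), 7 on the medium diet with the recommended supply, which was the control (M; 4 females, 3 males), and 7 on the high diet (H; 3 females, 4 males). Males were castrated, the piglets came from a few litters that the labels do not give, and blood was taken on day 63. There was 1 array per animal, so the number of arrays limits the precision. Values are log2 levels after robust multi-array averaging (RMA), and a difference of 1 is a doubling. A level is compared between animals only, not between probe sets. In a mixture of cells, fewer cells of a type and less RNA per cell cannot be told apart.

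The background control probe sets averaged 3.78 ± 0.17 for L, 3.85 ± 0.23 for M and 3.79 ± 0.11 for H arrays (SD over 6, 7 and 7 animals), and were highest in M19, L6 and M16 (group letter and animal number). Markers of the cells expected in PBMC were measured, the B cell gene MS4A1 at a mean of 11.02 and the T cell gene CD3E at 10.01, but so was erythroid HBB at 13.43. The granulocyte colony stimulating factor receptor CSF3R, used below as a neutrophil marker, averaged 10.19.

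In H against L animals 9 of 24 members had a positive difference, among them the 4 tested receptors of myeloid cells and the ligand CCL14, but no member passed the threshold of the study (unadjusted p under 0.01 and q under 0.21) in limma. That was 0 of 24 members, beside 0.0214% of all tested genes (2 of 9367). The study called many more genes at this threshold, with litter in its variance analysis and a filter on probe sets declared present. The fit here has neither, so the 2 sets of calls are not alike. Without animal L13, CXCR2, CCR1 and CCL14 passed (3 of 24, beside 1.48% of all genes in that fit). L13 was the L animal highest in all 3 genes, so leaving it out raises these differences. No member was called when any other single animal was left out. With array weights CXCR2 and CCL14 passed (2 of 24, beside 4.68%). In the main fit 3 of 24 had an unadjusted p under 0.05, CXCR2, CCR1 and CCL14, all higher in H. This was beside 9.16% of all genes in either direction and 4.96% higher. At an unadjusted p under 0.01 there was 1 of 24, CCL14, beside 2.19%. The study lists these 3 genes among those it selected on the same animals, so they are not independent evidence. Tested over the 3 diets at once (F test), 0 of 24 members reached an unadjusted p under 0.01 (beside 1.4% of all genes) and 2 of 24, CCL14 and CXCR2, one under 0.05 (beside 6.21%). The ranges of H and L animals overlapped for all 24 members, as for most genes (0.256% did not overlap).

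By role, all 4 myeloid receptors on the array (CXCR2, CCR1, XCR1, CCR2) had a positive H minus L difference, with a median of 0.66. CX3CR1, a receptor of both myeloid and lymphoid cells, was counted in neither group and lay at -0.24. All 6 lymphoid receptors that passed the filter (CCR7, CCR9, CCR10, CXCR3, CXCR4, CXCR5) had a negative H minus L difference, with a median of -0.19. In H against M, 3 of these 6 lay above 0 and 3 below, with a median of 0.04. The array holds 8 lymphoid receptors, and of the 2 below the filter CXCR6 went the other way, at 0.49. With no filter the median over the 8 was -0.12. The 13 ligands had a median of -0.09, and 5 of them were above 0. Over all genes the median was -0.02, and 45.1% lay above 0.

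**Figure D1:**
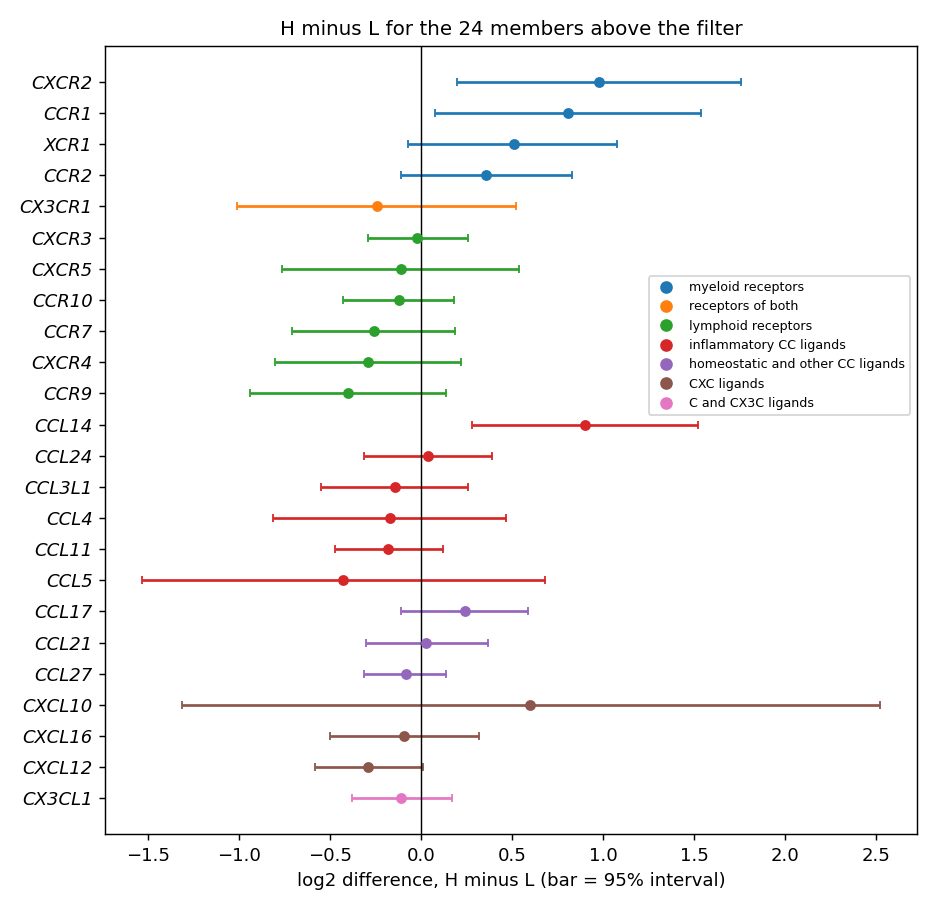
Log2 difference H minus L of the 24 tested chemokines and receptors (x axis, point = limma estimate, bar = 95% interval), grouped by role on the y axis. The intervals of CXCR2, CCR1 and CCL14 lie above 0 and those of the other 21 members include 0.

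CXCR2, the receptor of CXCL8 and related chemokines on neutrophils, had a lowest, median and highest level of 8.67, 9.49 and 11.49 in the L, 9.05, 10.04 and 10.94 in the M, and 9.80, 10.55 and 11.65 in the H animals. All 7 H animals lay above the median of the L animals, but the ranges overlapped, with L13 at 11.49 and L5 at 9.84. H lay 0.98 above L (SE 0.38, 95% interval 0.20 to 1.76, unadjusted p = 0.0165, q = 0.455, limma). The exact permutation test over 1716 splits of the animals, two-sided, gave p = 0.0536. Both other kept probe sets of CXCR2 pointed the same way, at 0.94 and 0.81. Without L9 or L10 the limma p of H against L was 0.0527 or 0.0515.

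CCR1, a receptor for CCL3 and CCL5 on monocytes and, in mice, neutrophils, ran at 8.29, 8.73 and 10.44 in the L, 8.13, 9.19 and 10.14 in the M, and 8.67, 9.75 and 10.71 in the H animals (lowest, median, highest). Again 1 L animal, L13 at 10.44, lay far above the other L animals, of which the next was at 8.87. H lay 0.81 above L (SE 0.35, 95% interval 0.08 to 1.54, unadjusted p = 0.0321, q = 0.500, limma), and the exact permutation p was 0.0851. Leaving out any of L5, L9, L10, L15, H3, H12 and H17 took the limma p above 0.05, up to 0.0841.

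XCR1, in mice and humans the receptor of cross-presenting dendritic cells, ran at 5.47, 6.33 and 7.34 in the L, 5.94, 6.35 and 6.88 in the M, and 6.06, 6.90 and 7.71 in the H animals. H minus L was 0.51 (95% interval -0.07 to 1.08, exact permutation p = 0.177). In the pig RefSeq annotation (Sscrofa11.1) the gene model of XCR1 overlaps that of CCR1, and signal shared between both genes cannot be told apart here. CCR2, the receptor of CCL2 that releases monocytes from the bone marrow, ran at 8.72, 9.44 and 9.75 in the L, 8.63, 9.56 and 9.75 in the M, and 9.29, 9.66 and 10.50 in the H animals. No H animal lay under 9.29, whereas the lowest L and M animals were at 8.72 and 8.63, and the difference H minus L was 0.36 (95% interval -0.11 to 0.83, exact permutation p = 0.148).

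**Figure D2:**
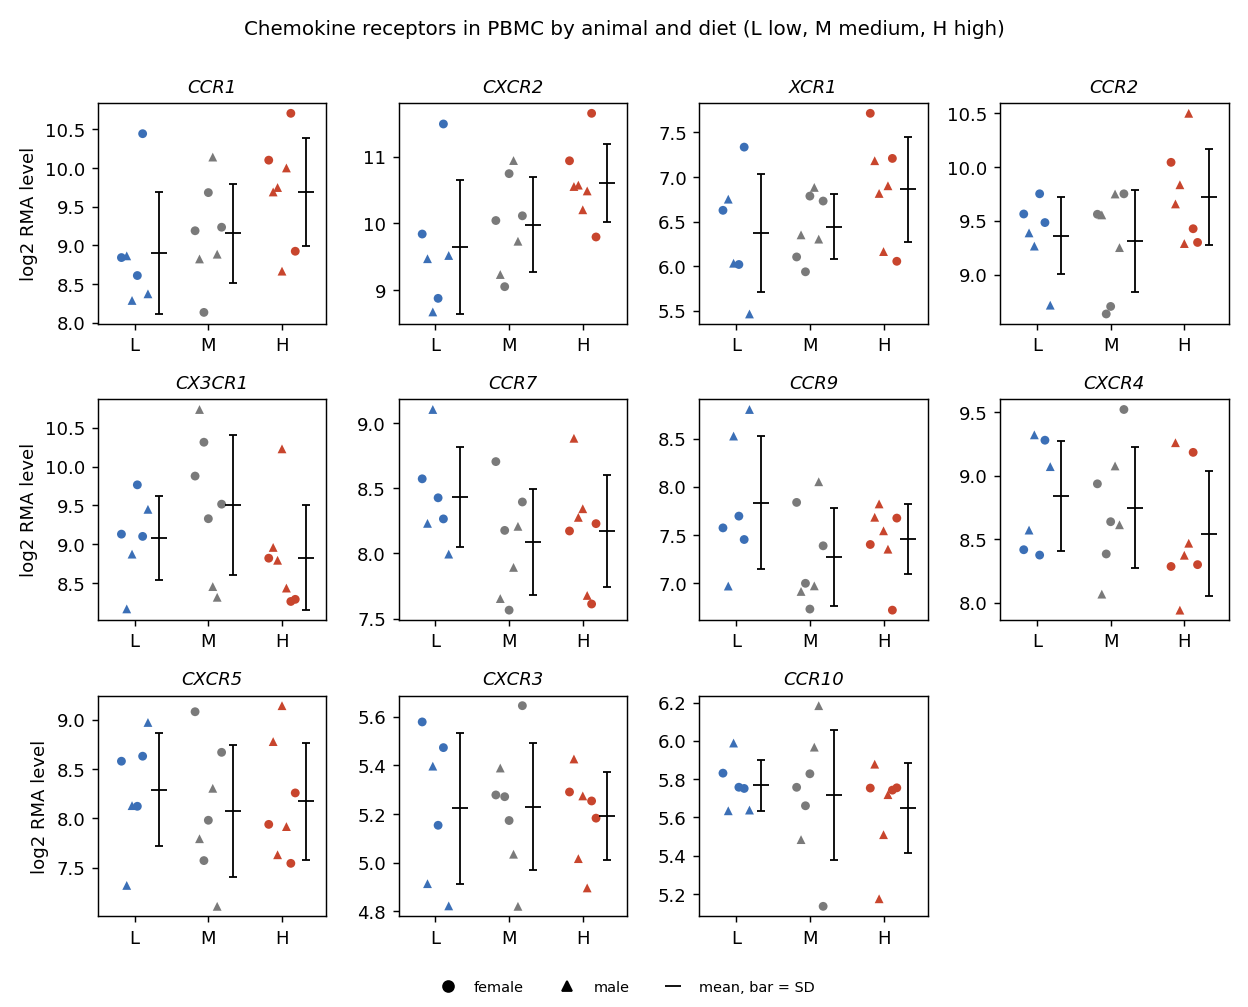
Log2 RMA level (y axis) of the 11 tested receptors in each animal, by diet (x axis, low to high); circles are females, triangles males, and the bar is the mean ± SD. In CCR1 and CXCR2 a single L animal, L13, lies among the highest H animals.

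None of the 6 lymphoid receptors that passed the filter had an unadjusted p under 0.05 in H against L. CCR7, which brings naive T cells and dendritic cells to lymph nodes, ran at 8.0, 8.35 and 9.11 in the L, 7.56, 8.18 and 8.71 in the M, and 7.61, 8.23 and 8.89 in the H animals. H minus L was -0.26 (SE 0.22, 95% interval -0.71 to 0.19, p = 0.239, q = 0.748 in limma, exact permutation p = 0.279). CXCR5, the receptor of B cells and follicular helper T cells for CXCL13, ran at 7.32, 8.35 and 8.97 in the L, 7.11, 7.98 and 9.08 in the M, and 7.55, 7.94 and 9.14 in the H animals, and H minus L was -0.11 (SE 0.31, 95% interval -0.76 to 0.54, p = 0.731, q = 0.897 in limma, exact permutation p = 0.715).

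CXCR4, which holds leukocytes in the bone marrow through CXCL12, ran at 8.38, 8.82 and 9.32 in the L, 8.07, 8.64 and 9.52 in the M, and 7.94, 8.37 and 9.26 in the H animals. H minus L was -0.29 (SE 0.25, 95% interval -0.80 to 0.22, p = 0.247, q = 0.751 in limma, exact permutation p = 0.254), and the second kept probe set gave -0.48. CXCR3, a receptor of activated T and NK cells for CXCL9, CXCL10 and CXCL11, stayed within a narrow range, 4.82, 5.28 and 5.58 in the L, 4.82, 5.27 and 5.65 in the M, and 4.90, 5.25 and 5.43 in the H animals. Its H minus L difference was -0.02 (SE 0.13, 95% interval -0.29 to 0.26, p = 0.911, q = 0.916 in limma, exact permutation p = 0.820). CCR10, a receptor of skin-homing T cells and plasma cells, ran between 5.14 and 6.18 over all animals, with H minus L at -0.12.

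CCR9 was the only member at an unadjusted p under 0.05 in L against M animals (1 of 24, beside 1.67% of all genes, called 0 of 24, beside 0%). CCR9 ran at 6.97, 7.64 and 8.80 in the L, 6.73, 7.00 and 8.05 in the M, and 6.72, 7.54 and 7.82 in the H animals. The 2 highest L animals lay above all M animals and the rest overlapped. L lay 0.54 above M (SE 0.26, 95% interval 0.00 to 1.08, p = 0.0489, q = 1, limma), but the exact permutation p was 0.118 and the limma p exceeded 0.05 in most alternatives, among them 14 of the 20 fits that left out 1 animal. H minus L was -0.40 (95% interval -0.94 to 0.14, exact permutation p = 0.225). All 6 lymphoid receptors that passed the filter were above 0 in L minus M, as were 53.3% of all genes, with a median of 0.16 beside 0.01 for all genes. This contrast shares the L animals with H minus L.

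CX3CR1, the fractalkine receptor of monocytes and cytotoxic lymphocytes, ran at 8.17, 9.12 and 9.76 in the L, 8.32, 9.52 and 10.73 in the M, and 8.27, 8.80 and 10.23 in the H animals. At the same time 6 of 7 H animals lay at or below 8.96 and 5 of 7 M animals at or above 9.33, with H11 at 10.23 among the highest. H minus M was -0.66 (SE 0.36, 95% interval -1.40 to 0.08, p = 0.0791, q = 0.769 in limma, exact permutation p = 0.129), and H minus L was -0.24 (p = 0.517). Without the 3 arrays of highest background (M19, L6, M16), of which M19 and M16 are the M animals lowest in CX3CR1, 4 members passed the threshold in H against M, namely CX3CR1, CCL5, CCL4 and CCL3L1 (4 of 24, beside 5.58% of all genes in that fit).

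CCL14 had the smallest p in H against L of the 13 ligands that passed the filter. CCL14, which in humans is made by many tissues and binds CCR1, ran at 3.36, 4.74 and 5.24 in the L, 4.04, 4.74 and 5.69 in the M, and 4.87, 5.33 and 6.63 in the H animals. All 7 H animals lay above the median of either other group, and the ranges overlapped between 4.87 and 5.24 with L. H lay 0.90 above L (SE 0.30, 95% interval 0.28 to 1.52, unadjusted p = 0.00675, q = 0.426 in limma, exact permutation p = 0.0122) and 0.63 above M (SE 0.29, p = 0.0408, q = 0.689, exact permutation p = 0.0402). It was the only member under 0.05 in H against M (1 of 24, beside 7.18% of all genes, called 0 of 24, beside 0.0427%). Both contrasts share the H animals. In H against M the limma p exceeded 0.05 in 9 of 31 alternatives, up to 0.119, namely without any of M2, M8, M14, M19, M20, H3 and H12, without the 3 arrays of highest background and with no moderation. CCL14 correlated over the 20 animals with the mean of 9 neutrophil genes at r = 0.631 and rho = 0.657 (permutation p adjusted over 192 relations 0.0248 and 0.0226, r = 0.642 without the 2 farthest animals, 0.477 with each diet centred on its mean). CCL14 also rose with the dendritic cell list (r = 0.595, rho = 0.538, adjusted permutation p 0.0351 and 0.0856) and the monocyte list (r = 0.544, rho = 0.624, adjusted 0.0708 and 0.0336). The probe set is dim, above the array median on 17 of 20 arrays. The arrays below were L6 (4.19, array median 4.41), L10 (3.36, array median 4.33) and M8 (4.04, array median 4.39). All 7 H animals lay above the array median. Passing the filter thus rested in part on the H animals, in which CCL14 was highest.

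CCL5 (RANTES), CCL4 and CCL3L1, inflammatory ligands made by cytotoxic lymphocytes among others, had negative differences of H against M of -0.91, -0.49 and -0.32 (exact permutation p = 0.153, 0.142 and 0.136). CCL5 ran at 7.41, 8.62 and 9.81 in the L, 7.39, 8.79 and 11.03 in the M, and 7.65, 8.12 and 10.09 in the H animals. M2 and M8 reached 10.89 and 11.03, above all H animals, and H11 reached 10.09, so the groups overlapped. The 3 kept probe sets of CCL5 gave H minus L differences of -0.43, -0.24 and -0.22.

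**Figure D3:**
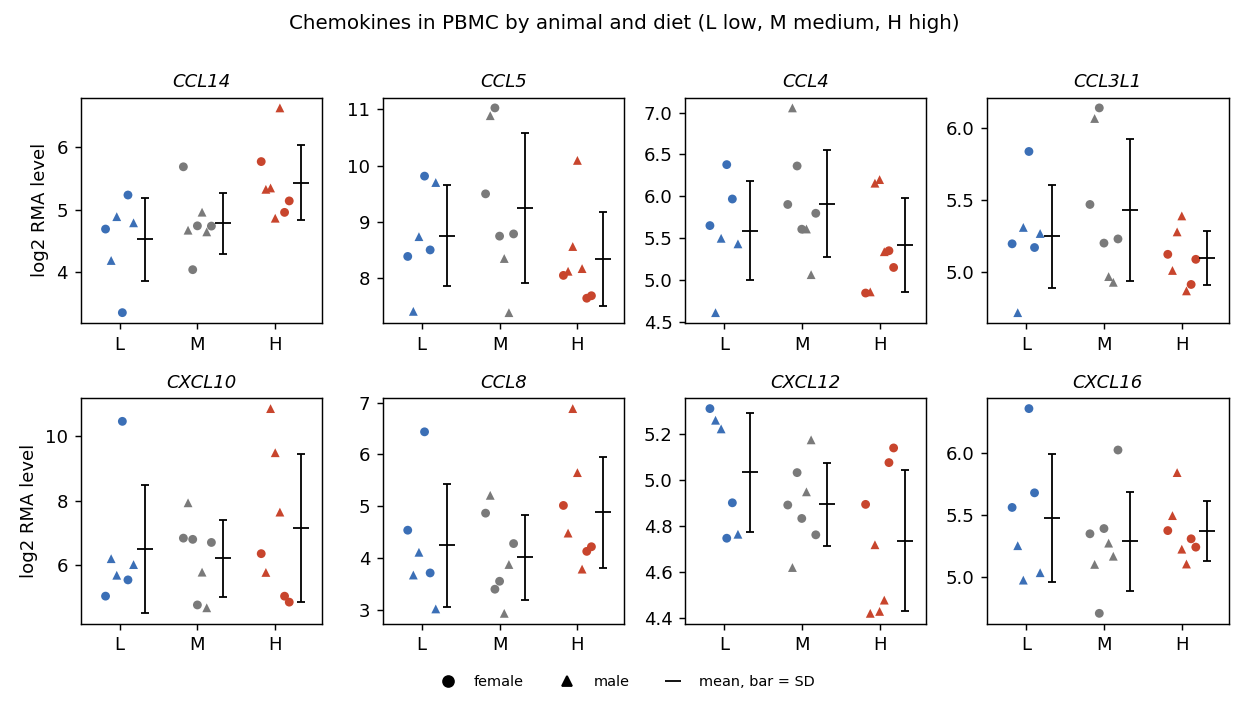
Log2 RMA level (y axis) of 8 ligands in each animal by diet (x axis, low to high); circles are females, triangles males, and the bar is the mean ± SD. CCL14 is highest in H, whereas in CXCL10 and CCL8 the same 3 animals, H7, L10 and H11, stand highest.

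CXCL10, the interferon-induced ligand of CXCR3, had the widest spread of the members, from 4.68 in M19 to 10.86 in H7. The 3 highest animals were H7 at 10.86, L10 at 10.47 and H11 at 9.49, and the next was M2 at 7.94. The same 3 animals were the highest in CCL8, a ligand of CCR2, with 6.88 in H7, 6.44 in L10 and 5.65 in H11, although CCL8 did not pass the filter. They came from both the H and the L diet. H minus L of CXCL10 was 0.60 (SE 0.92, 95% interval -1.31 to 2.52, exact permutation p = 0.609). CXCL12 and CXCL16 ran between 4.42 and 5.31 and between 4.71 and 6.36 over all animals, with H minus L at -0.29 and -0.09 (exact permutation p = 0.0874 and 0.661). Each rests on a single probe set, since the other probe sets of both genes did not pass the filter. Their r with the one used ran from -0.348 to 0.398 for CXCL12 and was 0.165 for CXCL16. CCL11, CCL17, CCL21, CCL24, CCL27 and CX3CL1 had H minus L differences between -0.18 and 0.24, none with p under 0.05.

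The 17 members that did not pass the filter were CCR4 and CXCR6 among the receptors and 15 ligands (CCL1, CCL2, CCL8, CCL16, CCL19, CCL20, CCL22, CCL25, CCL26, CCL28, CXCL2, CXCL9, CXCL11, CXCL14, XCL1). With the filter left out, CXCR6, a receptor of memory T cells and NK cells for CXCL16, lay 0.49 above L in H animals (exact permutation p = 0.0035). H lay between 4.59 and 5.21 and the 6 L animals between 4.21 and 4.60. The means of H and M were 4.84 and 4.80 (exact permutation p = 0.812), and L minus M was -0.45 (exact permutation p = 0.0251). XCL1 lay 0.41 below L in H animals (exact permutation p = 0.00641), and H minus M was -0.35 (exact permutation p = 0.0117). In CCL26 L minus M was -0.40 and H minus M -0.26 (exact permutation p = 0.00699 and 0.014). CCL22 differed by -0.31 in H minus L and 0.32 in L minus M (exact permutation p = 0.0862 and 0.0425). These p-values are not adjusted, and the share of all genes with no filter was not counted.

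Sex was compared in the same fit. CXCR3, on the X chromosome, was the only member under p 0.05 for males against females, at -0.23 (permutation p = 0.0275), which was 1 of 24 beside 1.83% of all genes, with lowest, median and highest levels of 4.82, 5.03 and 5.43 in males and 5.15, 5.28 and 5.65 in females. The H minus L difference differed between males and females at p under 0.05 in 4 of 24 members (beside 5.25% of all genes), CCL4, CXCL10, CXCL12 and CXCL16.

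The list of 55 signalling and accessory genes of chemokine receptors (G proteins, arrestins, RGS proteins, PI3K, DOCK2 and others) also held ligands (PPBP, MIF) and receptors (DARC, CCRL2, CMKLR1) under other symbols. Of the 55, 47 were tested. In H against L, 30 lay above 0 and 17 below, the median was 0.04, and none reached an unadjusted p under 0.01. At an unadjusted p under 0.05 there were 2 of 47 above 0 (VAV3, a guanine exchange factor, at 0.41 and the kinase PTK2B at 0.39), beside 4.96% of all genes, and 1 of 47 below 0 (GNG2, a G protein subunit, at -0.42), beside 4.2%. These shares are near or under those of all genes.

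The members varied with each other and with the cell markers. Over the 20 animals, CX3CR1 correlated with the mean of 7 NK and cytotoxic genes (NKG7, PRF1, GZMB, GNLY, KLRK1, NCR1, EOMES) at Pearson r = 0.958 and Spearman rho = 0.922 (permutation p = 1e-05 each, the smallest the 100000 permutations can give, adjusted 0.00032 over 192 relations), and at r = 0.940 without the 2 animals farthest from the median of the list. Within the diets r was 0.888 in L, 0.979 in M and 0.977 in H. CCL5 followed at r = 0.917 (rho 0.859, 0.895 without 2 animals, and 0.895, 0.939 and 0.945 within L, M and H), and CCL3L1 at 0.863 (rho 0.875, 0.893 without 2 animals). CCL4 was at 0.784 (rho 0.690, adjusted p = 0.0011 for r and 0.014 for rho, 0.660 without 2 animals). CCL5 and CX3CR1 correlated at r = 0.947 (rho 0.931, 0.923 without 2 animals). CCL3L1 and CCL4, neighbours in the RefSeq gene order, correlated at 0.843 (rho 0.820, 0.747 without 2 animals). Of the 276 pairs of members, 10 passed an adjusted p of 0.05 in both coefficients.

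CCR1, CXCR2 and XCR1 correlated with the mean of 9 neutrophil genes (IL1R2, CSF3R, S100A8, S100A9, S100A12, MMP9, TGM3, PADI4, VNN2) at r = 0.924, 0.837 and 0.868 (rho 0.953, 0.859 and 0.916, permutation p = 1e-05, adjusted 0.00032). They were 0.906, 0.789 and 0.824 without the 2 farthest animals. After centring each diet on its mean, the values were 0.910, 0.784 and 0.861. CCR1 and CXCR2 correlated at 0.937 (rho 0.916, 0.902 without 2 animals), and CCR1 and XCR1 at 0.860 (rho 0.901, 0.875 without 2 animals). XCR1 correlated with the dendritic cell list at 0.441 (adjusted p above 0.05). CCR1 correlated with the T cell list at -0.738 (rho -0.720, -0.605 without 2 animals), CCR2 with the monocyte list at 0.705 (rho 0.675, 0.521 without 2 animals), and CXCR5 with the B cell list at 0.749 (rho 0.698, 0.778 without 2 animals). CCL11, an eosinophil attractant, correlated with the erythroid list at 0.710 (rho 0.704, 0.529 without 2 animals). In all, 22 of 192 relations of a member with a list passed an adjusted p of 0.05 in both coefficients.

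**Figure D4:**
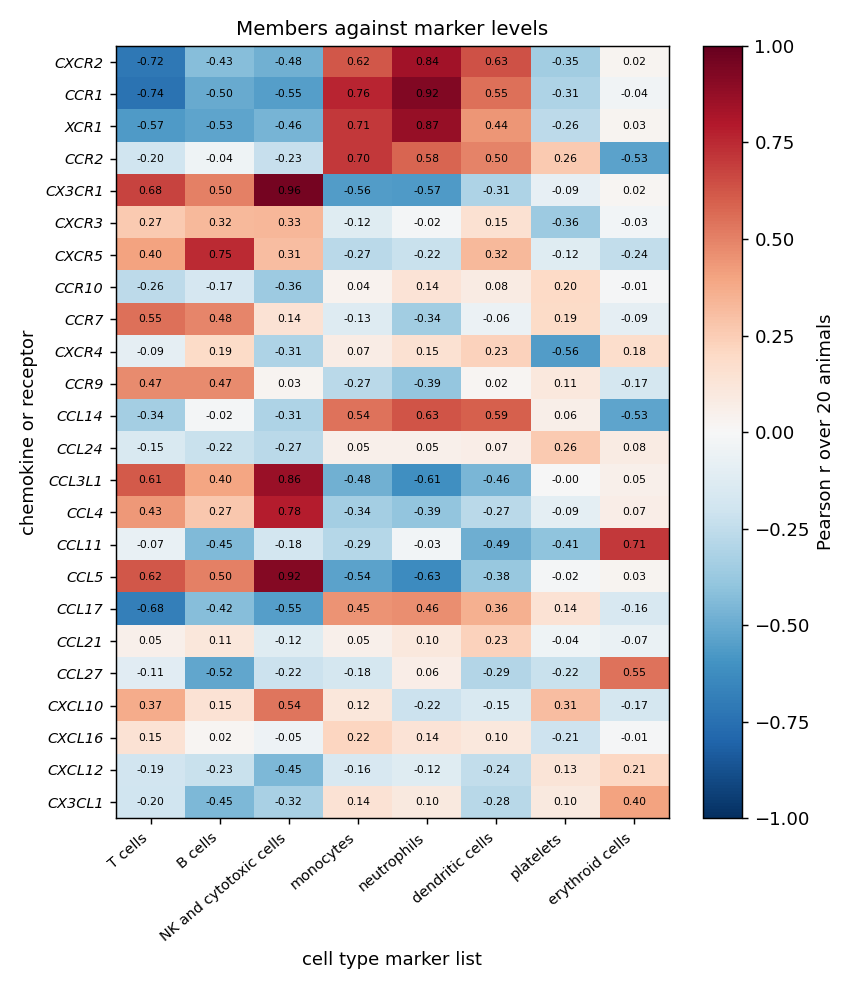
Pearson r over 20 animals (colour and number) of each tested member (rows) with the mean level of each marker list (columns). CX3CR1, CCL5, CCL3L1 and CCL4 are highest with the NK and cytotoxic list, and CCR1, CXCR2 and XCR1 with the neutrophil list.

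**Figure D5:**
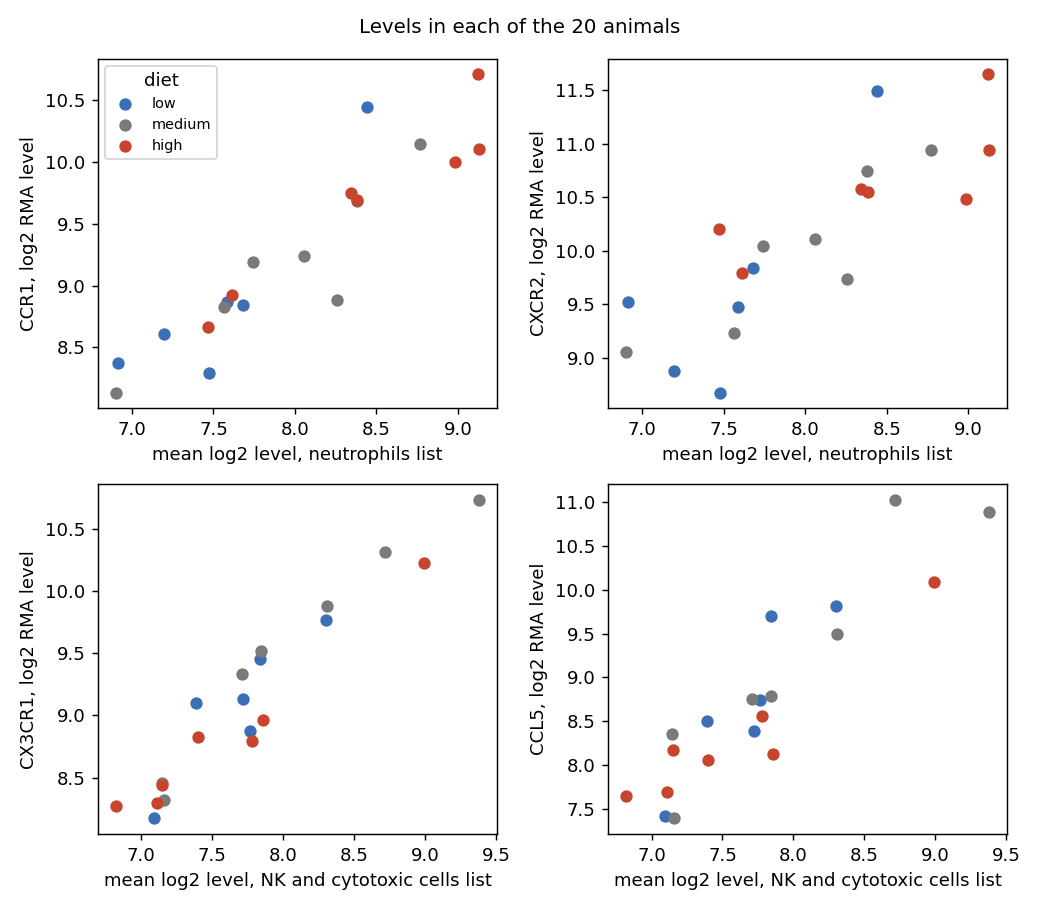
Levels of CCR1, CXCR2, CX3CR1 and CCL5 (y axes, log2) against the mean log2 level of the neutrophil and the NK and cytotoxic lists (x axes), 1 point per animal coloured by diet. Points of the 3 diets overlap, and the highest animals on the NK axis are M2, H11 and M8.

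The neutrophil, monocyte, T cell and B cell lists differed in the same direction as the myeloid and lymphoid receptors in H against L. In H against L, all 9 measured neutrophil markers had positive differences with a median of 0.80, and all 6 monocyte markers had positive differences with a median of 0.79, while all 6 T cell markers had negative ones with a median of -0.40 and all 6 B cell markers a median of -0.25. The medians of the other lists were -0.09 for NK and cytotoxic cells, 0.19 for dendritic cells, 0.18 for platelets and -0.44 for erythroid cells. Over all genes the median was -0.02, 45.1% lay above 0, and no marker of any list was called. In H against M the medians were 0.56 for neutrophil, 0.62 for monocyte, -0.34 for T cell and -0.01 for B cell markers. Of the B cell markers 3 lay above 0 and 3 below in that contrast. The mean neutrophil level ran at 6.91, 7.53 and 8.44 in the L, 6.90, 8.06 and 8.77 in the M, and 7.47, 8.38 and 9.13 in the H animals. The neutrophil list includes IL1R2 and CSF3R, which the study names among its selected genes, and none of the lists is independent of these animals. The part of these markers in the differences of CXCR2, CCR1 and CCL14 was not tested. A gradient separates mononuclear cells from granulocytes, but the neutrophil markers were measured in all animals. Whether their signal came from granulocytes or from monocytes was not tested.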

How the data were processed

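PBMC of 20 piglets were profiled on the snowball array, 1 array per animal, and the authors excluded 1 further array in quality control. The authors isolated the cells on a density gradient, read the arrays with GCOS 1.1.1 and deposited log2 values after RMA (background correction, quantile normalization and summary of the probes), which largely removes a change of all transcripts together. Gene symbols are those of the platform annotation.

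Probe sets above the array median on at least 16 of 20 arrays were kept (22127 of 47845), and 123 control probe sets were left out. One model of diet and sex over all 20 arrays was fitted in limma 3.58.1 (R 4.3.3). Litter is not in the labels. Calls required an unadjusted p below 0.01 together with Storey's q below 0.21. Single members were also compared by two-sided exact permutation tests, whose smallest possible p is 0.000583. These p-values measure only the spread between animals. Members were correlated with mean levels of marker lists over 20 animals by 100000 permutations, with Benjamini-Hochberg adjustment over 192 relations with lists and 276 between members.

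The members and lists were chosen with earlier results of these data known. All members may be named. Given in full were those with p under 0.05 in a diet contrast and the main receptors. Alternatives were no or a stricter filter (75th percentile), no sex covariate, no moderation, trend and robust variances, array weights, centring, cyclic loess, other thresholds, the mean of all probe sets, fewer arrays and leaving out each animal. On simulated data for H against L, where 200 probe sets were shifted by a log2 value of 1, 178 were recovered with 43 false calls among 22127. The simulated noise was normal and independent between probe sets, whereas measured genes vary together. The simulation checks the code and does not give the share of true differences found on these arrays. In the measured data CXCR2, at a difference of 0.98, had q = 0.455 in limma and was not called. Gene order and the overlap of gene models were read from RefSeq (Sscrofa11.1), in which all 41 symbols matched. No coordinates of the probe sets were used, since the build of the array is not given in the sources used here.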

Additional observations from a re-analysis of the deposited data

Results flagged for a closer look

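In 7 of 72 groups (24 members in 3 diets) the highest or lowest animal stood apart from the others by Dixon's 95% value, where chance flags about 1 in 20 groups. The highest L animal in CCR1 was L13 at 10.44, with the next at 8.87. H11 was the highest H animal in CX3CR1 at 10.23 (next 8.96) and in CCL5 at 10.09 (next 8.56), and L10 the highest L animal in CXCL10 at 10.47 (next 6.21). H17 was the lowest H animal in CCR9 at 6.72 (next 7.35). CCL11 had H12 as the lowest H animal at 5.27 (next 5.63) and M14 as the highest M animal at 6.53 (next 5.90).

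The H minus L difference differed between males and females at an unadjusted p under 0.05 in limma for 4 members, none after adjustment over all genes (adjusted p = 0.898). Males minus females was 4.07 for CXCL10 (2.47 in males and -1.60 in females) and 1.34 for CCL4 (0.46 in males and -0.88 in females). It was 0.89 for CXCL16 (0.33 in males and -0.56 in females) and -0.62 for CXCL12 (-0.57 in males and 0.05 in females). The groups held 3 or 4 animals of each sex, and in CXCL10 the highest animals were the H males H7 and H11 and the L female L10.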

How the results depend on the processing

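Under the alternatives run, no direction reversed for the H minus L medians of lymphoid receptors, myeloid receptors and ligands. The same held for CCL14, CXCR2 and CCR1 in H against L, CCL14 in H against M and CCR9 in L against M. The directions of the other differences were not followed. The members called in H against L, 0 as reported, were 1 at an unadjusted p under 0.01 alone (beside 2.19% of all genes). They were 2 with array weights (beside 4.68%) and 0 to 3 when an animal was left out (3 without L13, beside 1.48%). In H against M, 4 were called without the 3 arrays of highest background (beside 5.58% of all genes) and 0 otherwise. In L against M, 0 were called throughout. Members at p under 0.05 in H against L (3 as reported) were 6 with no filter, 5 with array weights, 5 without the 3 arrays of highest background, and 1 to 5 with an animal left out (1 without L9). In H against M (1 as reported) they were 3 with no filter, 0 with the stricter filter and with no moderation, 9 with array weights, 2 with cyclic loess, 7 without the 3 arrays and 0 to 6 with an animal left out (6 without H11, 5 without M16). In L against M (1 as reported) they were 4 with no filter, 3 with array weights, 2 without the 3 arrays, 0 with the stricter filter, no moderation, trend and robust variances, centring, cyclic loess, the arrays of the 2 groups and the mean of probe sets, and 0 to 2 with an animal left out. The median of the ligands, -0.09, was -0.43 with the stricter filter, which left 1 ligand. The share of all genes at p under 0.05 was not counted in the alternative fits. The counts of members at that p are therefore not read as a result about the members. The cause of these shifts was not tested. CCL14 in H against L kept p under 0.05 in the 31 alternatives that tested it (limma and exact permutation p = 0.00213 to 0.0285), and the stricter filter left it out. CXCR2 kept it in 29 of 32 and CCR1 in 23 of 32. CCL14 in H against M kept it in 22 of 31 and CCR9 in L against M in 10 of 32. No analysis within litters was possible because litter is not in the labels. Signal near background limits CCL14, and the number of animals limits every difference.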
